A study of Arabidopsis thaliana with 8 samples.

Results

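A set of 10 genes of vegetative phase change, the passage from juvenile to adult leaves, was followed in 8 RNA sequencing libraries of Arabidopsis thaliana seedlings. They were chosen by name and locus, 6 from the SPL family and 4 from the APETALA2 (AP2) family, out of 33602 loci in the count table, and all 10 were found there. The SPL genes were SPL3 (AT2G33810), SPL4 (AT1G53160), SPL5 (AT3G15270), SPL9 (AT2G42200), SPL10 (AT1G27370) and SPL15 (AT3G57920). The AP2-type genes were TOE1 (AT2G28550, listed as RAP2.7 in RefSeq), TOE2 (AT5G60120), SMZ (AT3G54990) and SNZ (AT2G39250).

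The libraries came from a pif4 hybrid, C24xpif4-101, and a Col hybrid, C24xCol. pif4-101 is a mutant allele of PIF4, which encodes a transcription factor of warmth and shade growth. C24 brings its own PIF4 copy to the cross, so the pif4 hybrid is not a complete loss of the gene, and the labels do not give the generation. All seeds germinated for 1 day at 22 °C in 8 h light and 16 h dark, and seedlings then stayed at 27 °C or 22 °C until day 7 or day 4 after sowing. Whole seedlings were harvested at ZT0, when the lights came on, and those of one condition were pooled. Each combination of hybrid, temperature and day had 1 library, so every factor was compared over 4 matched pairs of libraries. No condition had a second library here. The p-values therefore set each effect against how far these 8 pools depart from the fitted effects added together. This departure may be technical in part, and a true interaction left out of the fit would count in it.

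Total counts ran from 1664128 in the Col hybrid at 22 °C on day 4 to 25440561 in the Col hybrid at 27 °C on day 7. In the shallowest library 3 counts, the limit that a count of 0 allows, correspond to 2.14 CPM, against 0.106 CPM in the deepest, where CPM is a gene's share of the library total after TMM scaling. Intervals and this limit cover counting error only. PIF4 (AT2G43010) was read at 157 and 62.4 CPM at 27 °C and 22 °C on day 7 in the pif4 hybrid, against 187 and 72.7 CPM in the Col hybrid. The day 4 levels were 186 and 79.4 CPM in the pif4 hybrid, against 176 and 97.2 CPM in the Col hybrid. Its counts did not separate the hybrids by edgeR's quasi-likelihood test (log2 fold change −0.16, SE 0.11, adjusted p = 1), so they give no check of the genotype labels.

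In Arabidopsis the microRNA miR156 is abundant in young seedlings and declines as the plant ages. It cuts or silences the mRNAs of most SPL genes, whose proteins are transcription factors that bring on adult leaf traits and flowering. SPL9 in turn activates MIR172B, and the microRNA miR172 acts on the AP2-type genes TOE1, TOE2, SMZ and SNZ, which repress flowering and adult traits. Ageing along this path is known for less miR156, more SPL transcript, more miR172 and less of the AP2-type repressors. The libraries were made from mRNA and do not measure mature microRNAs.

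The microRNA and site sequences are shown first, since each of the 10 genes carries a near match to miR156 or to miR172. The mature microRNAs are given 5′ to 3′ with the seed, bases 2 to 8, in capitals. They were read from the RefSeq TAIR10.1 genome at the positions its annotation gives.

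miR156a-5p: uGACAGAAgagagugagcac
miR157a-5p: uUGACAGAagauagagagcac
miR172a: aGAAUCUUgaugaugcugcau

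miR156c-5p has the same sequence as miR156a-5p, and miR157c-5p the same as miR157a-5p. miR157a-5p carries an additional U at its 5′ end, so its seed overlaps the miR156 seed with a shift of 1 base and leaves out its last A.

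The best match to the complement of miR156a-5p or miR172a was sought in the spliced transcripts of each gene. Sites are written as DNA, 5′ to 3′ on the strand of the gene, with bases that depart from the perfect complement in capitals. They show that the SPL genes are near-identical at this site although it lies in the 3′ UTR of some and in the coding sequence of others.

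SPL3: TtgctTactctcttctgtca
SPL4: CtgctcTctctcttctgtca
SPL5: CCgctcTctctcttctgtca
SPL9, SPL10 and SPL15: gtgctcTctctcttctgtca

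The miR156 sites of SPL3, SPL4 and SPL5 lay in the 3′ UTR, starting 49, 9 and 6 bases after the stop codon, at chr2:14305878-14305897 (plus strand), chr1:19807090-19807109 (plus strand) and chr3:5140598-5140617 (minus strand). Those of SPL9, SPL10 and SPL15 lay in the coding sequence, at chr2:17589066-17589085 (plus strand), chr1:9505541-9505560 (minus strand) and chr3:21444834-21444853 (minus strand). They departed from the complement of miR156a-5p at 2 bases in SPL3 and SPL4, 3 in SPL5 and 1 in SPL9, SPL10 and SPL15. Only 1 of the 3 annotated SPL4 transcripts held the site, whereas each of the other 5 SPL genes held it in every annotated transcript. The counts are per gene and do not separate these transcripts.

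The miR172 sites of the AP2-type genes all lay in the coding sequence and share a long central run.

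TOE1: CAgcagcatcatcaGgattct
TOE2: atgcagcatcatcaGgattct
SMZ: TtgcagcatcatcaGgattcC
SNZ: TtgTagcatcatcaGgattcC

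They were at chr2:12226233-12226253 (minus strand), chr5:24210889-24210909 (plus strand), chr3:20373774-20373794 (minus strand) and chr2:16389066-16389086 (minus strand), in the order listed. TOE2 departed from the complement of miR172a at 1 base, TOE1 and SMZ at 3 and SNZ at 4. SMZ held the site in 1 of its 2 annotated transcripts. Within 4 departures, 0.149% of the 31464 loci with an annotated mRNA matched miR156a-5p and 0.124% matched miR172a, on the sense strand. These are matches of letters in the Col reference, and the C24 alleles were not read.

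Levels of the 10 genes were first set side by side per kilobase of annotated exon. All 4 AP2-type genes stood above all 6 SPL genes in every library. TOE1 had a median of 27.9 CPM per kb over the 8 libraries (range 23.8 to 35.4), SNZ 17.8 (11.9 to 31.7), TOE2 13.5 (8.82 to 24.2) and SMZ 12.5 (9.47 to 16.6). These 4 ranges overlap from one gene to the next. SPL10 was the highest SPL gene, with a median of 4.15 CPM per kb (3.54 to 5.37), followed by SPL4 with 2.14 (0.874 to 4.02) and SPL9 with 1.58 (0.401 to 2.24), again with overlapping ranges. SPL15 (median 0.569 CPM per kb) and SPL5 (0.389) were lower.

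SPL3, a small SPL protein gene that promotes flowering, was almost unread. It had 2 counts in the Col hybrid at 27 °C on day 7, or 0.0705 CPM, and 0 in the other 7 libraries. In TAIR10.1 an opposite-strand locus, AT2G33815, covers 97.4% of the SPL3 exon bases, and this locus also had 0 counts in all 8 libraries. The labels name 2 library kits, one that keeps strand and one that does not, with no assignment to libraries, and the strand setting of the counting is not given in the sources used here. The counts of SPL3 therefore cannot be read as its level, and the part that the overlap has in them was not tested.

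Another 3 members share exon bases with a counted locus on the opposite strand. AT3G57910 covers 100% of the SPL15 exon bases and had 3.57 to 7.49 CPM, above SPL15 in every library. AT3G15260 covers 25.5% of those of SPL5 and had 38.6 to 71.9 CPM, and AT3G54980 covers 30.6% of those of SMZ and had 8.57 to 12.9 CPM. Values of SPL15, SPL5 and SMZ carry this limit. SPL10, TOE1, TOE2 and SNZ overlap no other annotated gene, and the annotated neighbours of SPL4 and SPL9 (MIR156i and MIR156j, 14.4% and 3.82% of exon bases) were not in the count table.

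**Figure D1:**
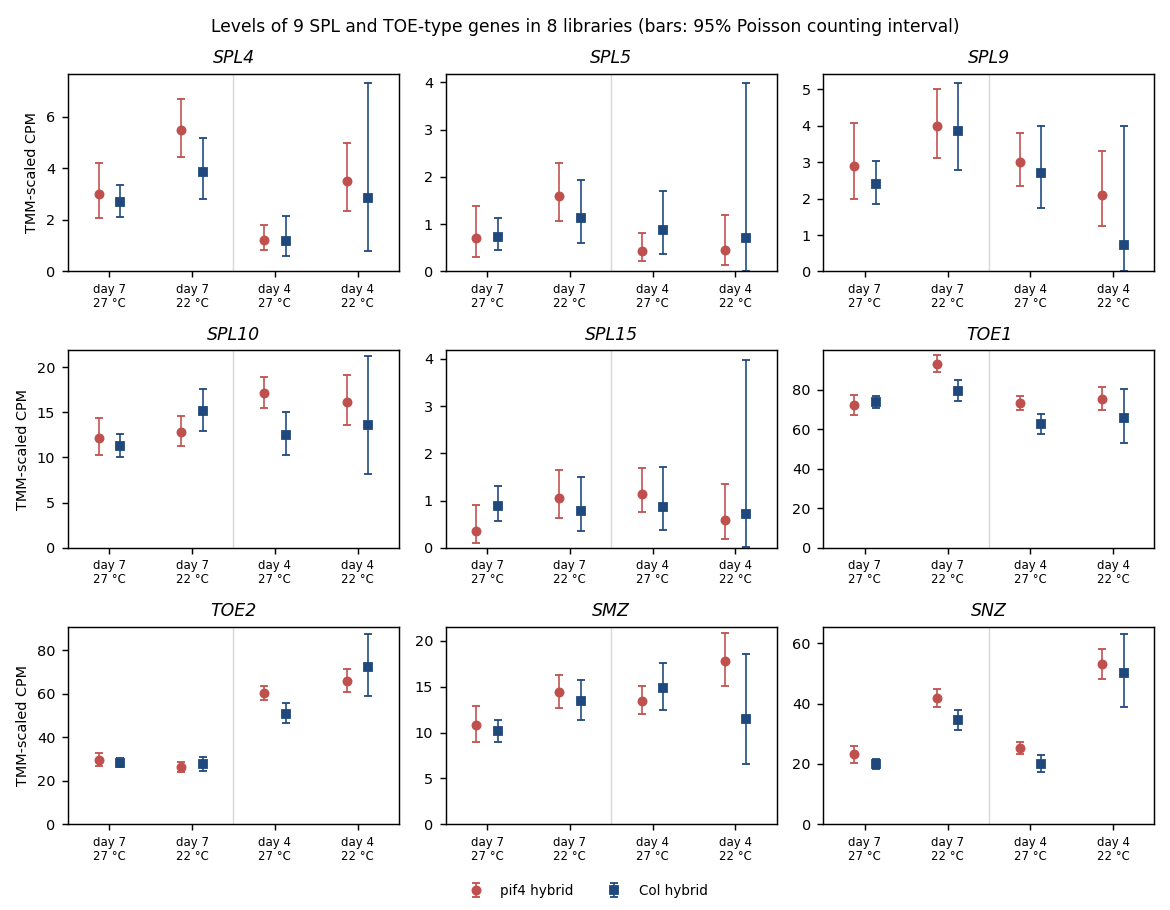
TMM-scaled CPM (vertical axis, linear, from 0) of 9 members in each of the 8 libraries, by day and temperature, with circles for the pif4 hybrid, squares for the Col hybrid and bars for the 95% Poisson counting interval. SNZ is lower in each 27 °C library (19.9 to 25.2 CPM) than in each 22 °C library (34.4 to 53.0 CPM), and TOE2 is lower on day 7 (26.3 to 29.6 CPM) than on day 4 (50.9 to 72.2 CPM); SPL3, with 2 counts in all, is not drawn.

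Of the 10 genes, 8 passed the filter on low counts and were tested, and SPL3 and SPL5 were not. At 27 °C, set against 22 °C, SNZ and SPL4 fell and no member rose. Across all 19829 genes tested, 19.5% rose and 19.2% fell at 27 °C, by edgeR's quasi-likelihood test at an adjusted p under 0.05. All 8 members tested had an estimate below 0, with a median log2 fold change of −0.15, beside 0.006 for all genes. Of these estimates 6 were not called, and single pairs went both ways. SPL15 was higher at 27 °C in 3 of 4 pairs, and SPL9 and TOE2 in 2 of 4 each. The call of 2 of 8 in the downward direction is near the share of all genes that fell.

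SNZ, an AP2-type repressor of flowering, had 23.1 CPM at 27 °C and 41.9 CPM at 22 °C on day 7 in the pif4 hybrid, and 19.9 and 34.4 CPM in the Col hybrid. Day 4 gave 25.2 CPM at 27 °C and 53.0 CPM at 22 °C in the pif4 hybrid, and 20.0 and 50.01 CPM in the Col hybrid. All 4 libraries at 27 °C lay below all 4 at 22 °C. The means were 22.0 ± 2.57 CPM at 27 °C and 44.8 ± 8.39 CPM at 22 °C (SD over 4 libraries each, ages and hybrids mixed). The log2 fold change was −0.98 (SE 0.11, edgeR adjusted p = 4.5e-05), a level of 0.505 times that at 22 °C, with the lower value at 27 °C in 4 of 4 pairs. The call held in all 16 alternatives, with log2 fold changes of −1.12 to −0.92. In whole seedlings, fewer cells that express a gene and less RNA per cell cannot be told apart.

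SPL4, a small SPL protein gene close to SPL3 and SPL5, was read at low levels. In the pif4 hybrid it had 3.00 CPM at 27 °C and 5.48 CPM at 22 °C on day 7, and 1.24 and 3.49 CPM on day 4. In the Col hybrid it had 2.68 CPM at 27 °C and 3.84 CPM at 22 °C on day 7, and 1.19 and 2.86 CPM on day 4. Within each pair the 27 °C library was lower, while the temperature groups as wholes overlapped, since day 7 at 27 °C reached the level of day 4 at 22 °C. The log2 fold change was −0.93 (SE 0.23, edgeR adjusted p = 0.00654), or 0.525 times the level at 22 °C. Its counts ran from 4 in the shallowest library to 99, and the call held in all 15 alternatives that could test it, with log2 fold changes of −1.15 to −0.78.

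The remaining AP2-type genes did not pass for temperature. SMZ, the closest relative of SNZ, had 10.8 CPM at 27 °C and 14.4 CPM at 22 °C on day 7 in the pif4 hybrid, and 10.2 and 13.5 CPM in the Col hybrid. On day 4 it had 13.4 CPM at 27 °C and 17.8 CPM at 22 °C in the pif4 hybrid, but 14.9 and 11.4 CPM in the Col hybrid, whose 22 °C library is the shallowest. In all, 3 of 4 pairs were lower at 27 °C, with log2 ratios close to −0.40, and the fitted log2 fold change was −0.31 (SE 0.13, edgeR adjusted p = 0.086). SMZ passed without the Col hybrid library at 22 °C on day 4 (−0.39, edgeR adjusted p = 0.0298), without the one at 27 °C on day 4 (−0.36, edgeR adjusted p = 0.0218), and in limma-voom (−0.34, adjusted p = 0.0498). TOE1, the highest member, had 72.1, 73.7, 73.1 and 62.6 CPM in the 27 °C libraries, against 93.2, 79.6, 75.2 and 65.7 CPM at 22 °C, pairing the pif4 and Col hybrids on day 7 and then on day 4. All 4 pairs were lower at 27 °C by small amounts (−0.15, SE 0.10, edgeR adjusted p = 0.237).

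**Figure D2:**
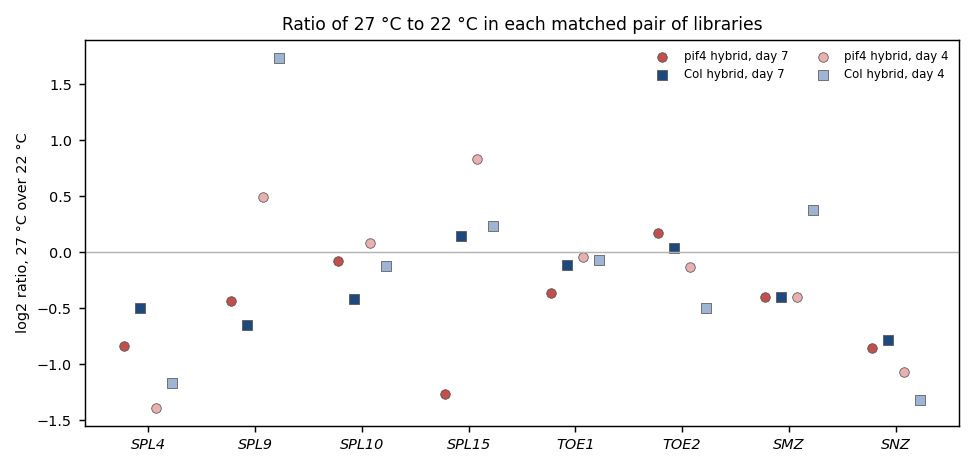
Log2 ratio of 27 °C to 22 °C (vertical axis) in each of the 4 matched pairs of libraries for the 8 members tested, with dark symbols for day 7 and light symbols for day 4, circles for the pif4 hybrid and squares for the Col hybrid. SNZ and SPL4 lie below 0 in all pairs, from −0.79 to −1.32 and from −0.50 to −1.39, whereas the SPL9 pairs lie above 0 on day 4 and below 0 on day 7.

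The SPL genes of the larger kind showed no called temperature effect. SPL9, a promoter of adult leaf traits that also acts on MIR172B, had 2.91 CPM at 27 °C and 3.99 CPM at 22 °C on day 7 in the pif4 hybrid, and 2.40 and 3.84 CPM in the Col hybrid. On day 4 SPL9 had 3.01 CPM at 27 °C and 2.09 CPM at 22 °C in the pif4 hybrid, and 2.71 and 0.715 CPM in the Col hybrid. The 27 °C library was thus lower on day 7 and higher on day 4 in both hybrids, and the Col hybrid value at 22 °C on day 4 rests on 1 count (95% interval 0.0181 to 3.98 CPM). The fitted log2 fold change over both days was −0.15 (SE 0.27, edgeR adjusted p = 0.693). SPL10, which acts in leaf and shoot maturation, had 12.2, 11.3, 17.1 and 12.5 CPM at 27 °C, against 12.8, 15.1, 16.2 and 13.6 CPM at 22 °C, in the same order of pairs as for TOE1 (−0.15, SE 0.14, edgeR adjusted p = 0.405). SPL15, a close relative of SPL9, stayed between 0.353 and 1.15 CPM with 1 to 26 counts (−0.02, SE 0.40, edgeR adjusted p = 0.971), and the untested SPL5 between 0.442 and 1.61 CPM with 1 to 29 counts.

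On day 7, set against day 4, SPL4 rose and TOE2 fell. Across all genes tested 24.8% rose and 24% fell with age, by the same edgeR test and threshold. The count of 1 of 8 members in each direction is too small to be set apart from these shares. The members' median log2 fold change was −0.22, beside −0.001 for all genes.

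TOE2, an AP2-type repressor of flowering and of adult leaf traits, had the largest age effect of the members tested. In the pif4 hybrid it had 29.6 CPM on day 7 and 60.3 CPM on day 4 at 27 °C, and 26.3 and 65.9 CPM at 22 °C. In the Col hybrid it had 28.2 CPM on day 7 and 50.9 CPM on day 4 at 27 °C, and 27.5 and 72.2 CPM at 22 °C. Every day 7 library lay below every day 4 library, and the 4 on day 7 were close together at 27.9 ± 1.38 CPM, against 62.3 ± 9.03 CPM on day 4 (SD, 4 libraries each, temperatures and hybrids mixed). The log2 fold change was −1.13 (SE 0.11, edgeR adjusted p = 1.8e-05), or 0.457 times the day 4 level, and the call held in all 16 alternatives (−1.24 to −1.05).

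The other AP2-type genes did not follow TOE2 past the threshold. TOE1 was higher on day 7 in 3 of 4 pairs (79.6 ± 9.59 CPM on day 7 and 69.2 ± 5.98 CPM on day 4, SD, 4 libraries each), with a log2 fold change of 0.19 (SE 0.10, edgeR adjusted p = 0.122). SMZ was lower in 3 of 4 pairs (−0.32, SE 0.13, edgeR adjusted p = 0.0652) and SNZ in 4 of 4 (−0.24, SE 0.11, edgeR adjusted p = 0.0839). SMZ passed in limma-voom (−0.33, adjusted p = 0.0490) and without the Col hybrid library at 22 °C on day 4 (−0.39, edgeR adjusted p = 0.0260). Without the Col hybrid library at 27 °C on day 4, SNZ (−0.30, edgeR adjusted p = 0.0184) and SPL10 (−0.36, edgeR adjusted p = 0.0485) passed, which brought the count of members called to 4.

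SPL4 was higher on day 7 than on day 4 in all 4 pairs, by a fitted log2 fold change of 0.93 (SE 0.24, edgeR adjusted p = 0.00632), or 1.91 times. The call held in all 15 alternatives that could test it (0.75 to 1.16). Its age and temperature effects were of the same size and opposite in sign, so the pif4 hybrid had 3.00 CPM on day 7 at 27 °C beside 3.49 CPM on day 4 at 22 °C. SPL9 had 3.28 ± 0.761 CPM on day 7 and 2.13 ± 1.02 CPM on day 4 (SD, 4 libraries each). It was higher on day 7 in the pairs at 22 °C (log2 ratio 0.88 in the pif4 hybrid and 2.22 in the Col hybrid) and slightly lower at 27 °C (−0.05 and −0.17). The SPL9 age effect over both temperatures did not pass (0.33, SE 0.28, edgeR adjusted p = 0.333), nor did those of SPL10 (−0.25, SE 0.14, edgeR adjusted p = 0.149) and SPL15 (−0.21, SE 0.40, edgeR adjusted p = 0.695).

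**Figure D3:**
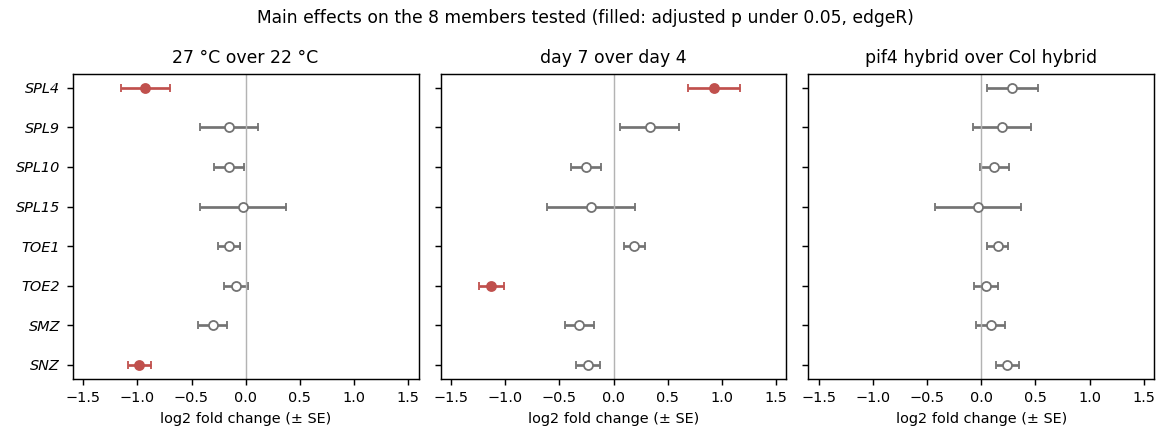
Fitted log2 fold changes (horizontal axis) of the 8 members tested, with bars of 1 SE, for 27 °C over 22 °C, day 7 over day 4 and the pif4 hybrid over the Col hybrid; filled points passed edgeR's test at an adjusted p under 0.05. SPL4 (−0.93) and SNZ (−0.98) passed for temperature, SPL4 (0.93) and TOE2 (−1.13) for age, and no member for hybrid.

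Between the hybrids no member passed edgeR's test. Over all genes 0.00504% passed, which is 1 of 19829, and 12 passed in DESeq2. Of the 8 members, 1 had an unadjusted edgeR p under 0.05, beside 4.01% of all genes, and none passed in DESeq2 or limma-voom. That member was SNZ, with 35.8 ± 14.2 CPM in the pif4 hybrid and 31.1 ± 14.4 CPM in the Col hybrid (SD, 4 libraries each). It was higher in the pif4 hybrid in 4 of 4 pairs, by a log2 fold change of 0.24 (SE 0.11, edgeR adjusted p = 1). SPL4 (0.29, SE 0.23) and SPL9 (0.19, SE 0.27) were also higher in the pif4 hybrid in 4 of 4 pairs without passing (edgeR adjusted p = 1 for both). The other 5 estimates lay between −0.03 (SPL15, SE 0.40) and 0.15 (TOE1, SE 0.10), and the median over the members was 0.13, beside 0.003 for all genes.

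Whether the effect of one factor changed with another was tested with an interaction term, and no member passed for any of the 3 terms in edgeR, DESeq2 or limma-voom. For temperature by age 0.267% of all genes passed, for genotype by temperature 0%, and for genotype by age 0.0908%. At an unadjusted edgeR p under 0.05, none of the 8 members passed for genotype by temperature or genotype by age, beside 0.948% and 8.49% of all genes. For temperature by age 1 of the 8 did, beside 9.02% of all genes. That member was SPL9, whose temperature effect was lower on day 7 than on day 4 by 1.24 on the log2 scale (interaction −1.24, SE 0.46, edgeR adjusted p = 0.432). The interaction of SPL4 was 0.71 (SE 0.44, edgeR adjusted p = 0.655), that of TOE2 0.39 (SE 0.20, edgeR adjusted p = 0.588) and that of SNZ 0.35 (SE 0.20, edgeR adjusted p = 0.626). The temperature effect on SNZ had nearly the same size in both hybrids, with log2 ratios of −0.85 on day 7 and −1.07 on day 4 in the pif4 hybrid, and −0.79 and −1.32 in the Col hybrid.

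The precursors of miR156 and miR157, the inputs to the SPL genes, were counted only as annotated hairpins, and 3 of 12 passed the filter. MIR156A (AT2G25095) had 2.20 and 0.830 CPM at 27 °C and 22 °C on day 7 in the pif4 hybrid, and 2.78 and 0.524 CPM in the Col hybrid. The day 4 values were 6.90 and 3.95 CPM in the pif4 hybrid, and 4.67 and 5.0 CPM in the Col hybrid. It was lower on day 7 in 4 of 4 pairs (log2 fold change −1.58, SE 0.29, edgeR adjusted p = 9.05e-04) and higher at 27 °C in 3 of 4 (1.13, SE 0.31, edgeR adjusted p = 0.0121). MIR156C (AT4G31877) had 10.6 and 7.20 CPM at 27 °C and 22 °C on day 7 in the pif4 hybrid, against 10.8 and 6.03 CPM in the Col hybrid. Day 4 levels were 20.0 and 18.1 CPM in the pif4 hybrid and 22.7 and 16.4 CPM in the Col hybrid. It was lower on day 7 (−1.15, SE 0.14, edgeR adjusted p = 5.13e-05) and higher at 27 °C (0.49, SE 0.14, edgeR adjusted p = 0.0147), each in 4 of 4 pairs.

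The temperature calls of both MIR156 hairpins rested on few libraries. Without the Col hybrid at 22 °C on day 7, MIR156A had a log2 fold change of 0.88 (edgeR adjusted p = 0.0731) and MIR156C one of 0.35 (edgeR adjusted p = 0.119). The MIR156A call was also lost without the pif4 hybrid at 27 °C on day 4 (1.16, edgeR adjusted p = 0.0509), and that of MIR156C without the pif4 hybrid at 27 °C on day 7 (0.46, edgeR adjusted p = 0.0615). The MIR156A call was lost too with log2 library total as a covariate (1.16, edgeR adjusted p = 0.0576) and the MIR156C call with thinned counts (0.65, edgeR adjusted p = 0.0593). Their age calls held in every alternative that could test them.

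MIR157C (AT3G18217) moved the other way on both factors. It had 4.14 and 10.4 CPM at 27 °C and 22 °C on day 7 in the pif4 hybrid, and 2.93 and 6.12 CPM in the Col hybrid. Levels on day 4 were 2.96 and 6.28 CPM in the pif4 hybrid and 1.08 and 4.29 CPM in the Col hybrid. It was lower at 27 °C (−1.21, SE 0.19, edgeR adjusted p = 4.56e-04) and higher on day 7 (0.75, SE 0.20, edgeR adjusted p = 0.00784), each in 4 of 4 pairs, and both calls held in all 15 alternatives that could test them. SPL4 and MIR157C thus had the same signs of change for both factors, opposite to those of MIR156A and MIR156C. MIR157C was also higher in the pif4 hybrid than in the Col hybrid in 4 of 4 pairs, without passing (0.77, SE 0.20, edgeR adjusted p = 0.631). The 5 miR172 precursors were at or near 0: MIR172A had 6 counts over the 8 libraries, MIR172B 2, and MIR172C, MIR172D and MIR172E none. This input to the AP2-type genes therefore could not be followed in these counts, and the reason for their low counts was not tested.

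**Figure D4:**
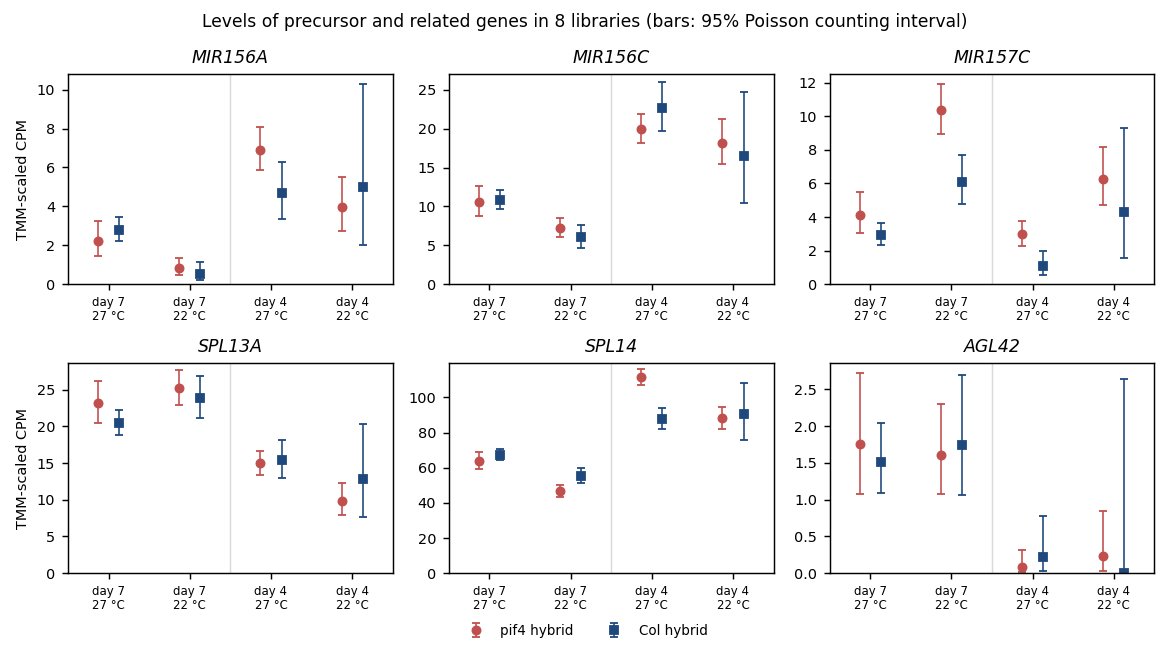
TMM-scaled CPM (vertical axis, linear, from 0) of 3 microRNA precursor hairpins and 3 related genes in the 8 libraries, by day and temperature, with circles for the pif4 hybrid, squares for the Col hybrid and bars for the 95% Poisson counting interval. MIR156A and MIR156C are lower on day 7 than on day 4, MIR157C within each pair and SPL13A are higher, SPL14 is lower and AGL42 is read almost only on day 7.

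Among the other SPL genes with a miR156 site, 4 of 5 were tested. None passed for temperature, where SPL2 (0.32, SE 0.12, edgeR adjusted p = 0.0543) and SPL11 (−0.22, SE 0.19, edgeR adjusted p = 0.382) had the smallest p. A call for 1 of them appeared with no filter on low counts, with matched pairs as blocks and without the Col hybrid at 27 °C on day 4. For age 1 rose and 1 fell, beside 24.8% and 24% of all genes. SPL13A (AT5G50570) had 23.2 and 25.2 CPM at 27 °C and 22 °C on day 7 in the pif4 hybrid, and 20.5 and 23.9 CPM in the Col hybrid. On day 4 SPL13A had 14.9 and 9.88 CPM in the pif4 hybrid and 15.4 and 12.9 CPM in the Col hybrid, and the day 7 libraries lay above all those of day 4 (0.79, SE 0.15, edgeR adjusted p = 9.53e-04). Its near-identical copy SPL13B had 0 counts everywhere, so the counts of the pair may be shared and are uncertain. With 1 library left out, the Col hybrid at 27 °C on day 4 or the pif4 hybrid at 22 °C on day 4, 2 of these genes fell. SPL2 fell (−0.40, SE 0.12, edgeR adjusted p = 0.0177). That call was lost without the pif4 hybrid at 27 °C on day 4 (−0.26, edgeR adjusted p = 0.104), at 22 °C on day 7 (−0.38, edgeR adjusted p = 0.0531) or at 27 °C on day 7 (−0.32, edgeR adjusted p = 0.123).

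The SPL genes without a miR156 site, whose best match departed from the complement at 6 to 8 bases, gave 2 rises and no fall at 27 °C among 5 tested, beside 19.5% and 19.2% of all genes. SPL16 (0.56, SE 0.13, edgeR adjusted p = 0.00557) and SPL1 (0.41, SE 0.11, edgeR adjusted p = 0.00987) rose in 4 of 4 pairs. Without the Col hybrid at 27 °C on day 4, or with matched pairs as blocks, 3 of the 5 rose. The SPL1 call was lost without the pif4 hybrid at 22 °C on day 7 (0.36, edgeR adjusted p = 0.0637) and with log2 library total as a covariate (0.38, edgeR adjusted p = 0.0551). With age 4 of these 5 fell and none rose, beside 24% and 24.8% of all genes, led by SPL14 (−0.70, SE 0.11, edgeR adjusted p = 3.9e-04), which held in all 16 alternatives. SPL7 (−0.39, SE 0.12, edgeR adjusted p = 0.0144) and SPL12 (−0.34, SE 0.11, edgeR adjusted p = 0.0212) came next. Without the Col hybrid at 27 °C on day 4 all 5 fell. SPL7 lost its call without any one of the pif4 hybrid libraries (−0.35 to −0.29, edgeR adjusted p from 0.0525 to 0.102). SPL12 lost it without the Col hybrid at 22 °C on day 4 or day 7, or any pif4 hybrid library except that at 22 °C on day 4 (−0.34 to −0.25, edgeR adjusted p from 0.0546 to 0.103). SPL1 (−0.33, SE 0.11, edgeR adjusted p = 0.0240) lost it without either Col hybrid library at 22 °C or any pif4 hybrid library (−0.33 to −0.27, edgeR adjusted p from 0.0600 to 0.118). The count of 4 was thus 1 without the pif4 hybrid at 27 °C on day 4, at 22 °C on day 7 or at 27 °C on day 7, and 2 without the pif4 hybrid at 22 °C on day 4, without either Col hybrid library at 22 °C or with log2 library total as a covariate.

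Of the 2 other AP2-type genes with a miR172 site, AP2 itself, a floral organ and flowering gene, fell with age in 4 of 4 pairs (−0.40, SE 0.10, edgeR adjusted p = 0.00665), a call lost with thinned counts (−0.30, edgeR adjusted p = 0.196). TOE3 did not pass (0.23, SE 0.18, edgeR adjusted p = 0.303), and neither passed for temperature (−0.16, SE 0.10 and −0.06, SE 0.18).

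Of 11 genes of microRNA and trans-acting siRNA production, 5 rose and none fell at 27 °C, beside 19.5% and 19.2% of all genes. That count rested on single libraries. It was 1 without any one of the Col hybrid at 22 °C on day 7, the Col hybrid at 27 °C on day 7, the pif4 hybrid at 27 °C on day 4 or the pif4 hybrid at 22 °C on day 7, and also 1 with log2 library total as a covariate. It was 3 without the Col hybrid at 22 °C on day 4 or the pif4 hybrid at 27 °C on day 7, and 2 with thinned counts. It was 7 without the Col hybrid at 27 °C on day 4, 6 with matched pairs as blocks and 4 without the pif4 hybrid at 22 °C on day 4. SGS3, which works with the RNA polymerase RDR6 in making trans-acting siRNAs, had the smallest temperature p (0.63, SE 0.12, edgeR adjusted p = 0.00170) and held in all 16 alternatives. RDR6 (0.38, edgeR adjusted p = 0.0232), the dicer gene DCL4 (0.54, edgeR adjusted p = 0.0301), SE (0.32, edgeR adjusted p = 0.0302) and AGO1 (0.36, edgeR adjusted p = 0.0333) were lost in 5, 5, 5 and 6 of the 8 fits that left out 1 library. Without the Col hybrid at 22 °C on day 7, for example, these 4 had edgeR adjusted p of 0.0588, 0.157, 0.0728 and 0.126.

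With age 7 of the 11 fell and none rose, beside 24% and 24.8% of all genes. The falls came to 8 without the Col hybrid at 27 °C on day 4 or day 7, and to 4 without the pif4 hybrid at 27 °C on day 7. HST, of microRNA export (−0.89, SE 0.16), the methyltransferase gene HEN1 (−0.58, SE 0.13) and the Argonaute gene AGO1 (−0.55, SE 0.12) had edgeR adjusted p of 6.98e-04, 0.00241 and 0.00265, and these calls held in all alternatives. The calls lost without the pif4 hybrid at 27 °C on day 7 were those of DCL1, AGO7 and DCL4 (edgeR adjusted p = 0.0795, 0.0511 and 0.0649).

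Of 11 genes that act upstream of MIR156, 9 were tested, and 2 rose and 2 fell at 27 °C, beside 19.5% and 19.2% of all genes. VAL1 (0.42), SWN (0.47) and HXK1 (−0.32) had the smallest p, and TPS1, of trehalose 6-phosphate synthesis, was the other fall (−0.38, SE 0.13, edgeR adjusted p = 0.0411). No temperature call was left without the Col hybrid at 22 °C on day 7, where the 4 genes had 0.37, 0.39, −0.33 and −0.29 (edgeR adjusted p = 0.0558, 0.0755, 0.0651 and 0.196). Without the Col hybrid at 27 °C on day 4 the count of rises was 4. SWN lost its call also without the pif4 hybrid at 22 °C on day 7 (0.42, edgeR adjusted p = 0.0510). Both falls were lost without any one of the pif4 hybrid libraries except that at 22 °C on day 7 (HXK1 −0.34 to −0.29, edgeR adjusted p from 0.0510 to 0.0706; TPS1 −0.43 to −0.29, edgeR adjusted p from 0.0599 to 0.179). TPS1 was lost in addition without the Col hybrid at 22 °C on day 4 (−0.39, edgeR adjusted p = 0.0639), in DESeq2 (−0.38, adjusted p = 0.0518) and in limma-voom (−0.37, adjusted p = 0.0533).

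With age 6 of the 9 fell and 1 rose, beside 24% and 24.8% of all genes. The falls came to 5 without the Col hybrid at 22 °C on day 7 or any single pif4 hybrid library. They came to 7 without the Col hybrid at 27 °C on day 4, and to 4, with no rise, in thinned counts. VAL1 (−0.33, edgeR adjusted p = 0.0186) lost its call in 5 of the 8 fits that left out 1 library. Thinned counts lost VAL1, HXK1 and AGL18, the only rise (edgeR adjusted p = 0.466, 0.325 and 0.0892). PKL, a chromatin remodeller (−0.62, SE 0.11), TPS1 (−0.76, SE 0.14) and the Polycomb gene CLF (−0.55, SE 0.10) held in all 16 alternatives (edgeR adjusted p = 6.07e-04, 7.08e-04 and 7.95e-04).

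Of 8 floral and meristem genes downstream of the SPL and AP2-type genes only FD and AGL42 were read well enough to test, and FT, the florigen gene that AP2-type repressors act on, had 0 counts in all 8 libraries. AGL42 (AT5G62165), a MADS-box gene, had 1.76 and 1.61 CPM at 27 °C and 22 °C on day 7 in the pif4 hybrid, and 1.52 and 1.75 CPM in the Col hybrid. On day 4 it had 2 counts in each of 3 libraries and 0 in the shallowest, or 0 to 0.233 CPM. It passed the filter only through its day 7 libraries, and it was not tested in fits that left out 1 of them. Its rise (edgeR adjusted p = 9.89e-05) therefore follows in part from how it entered the test, so the p-value is no separate support. The size of the rise depends on very few counts. FD, the partner of FT, did not pass for temperature (0.69, SE 0.27, edgeR adjusted p = 0.0579) or age (0.24, SE 0.27, edgeR adjusted p = 0.468). A call for 1 gene of this list as higher at 27 °C appeared in limma-voom. The same count came without the Col hybrid at 22 °C on day 4 and without that at 27 °C on day 4. With no filter on low counts, 1 rose and 1 fell at 27 °C among 7 tested.

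The genes with the pattern most like SNZ and SPL9 over the 8 libraries were sought by the root mean square distance between centred log2 CPM profiles, among genes averaging at least 5 CPM. For SNZ these were AT1G26761 (distance 0.098), HEME1 (AT3G14930, 0.099), a gene of tetrapyrrole synthesis, and AT1G75460 (0.101), beside a median distance of 0.632 over the 15802 genes searched. For SPL9 they were AT3G26750 (0.131), AT4G38020 (0.172) and AT3G26115 (0.198), beside a median of 0.725 over 15803 genes. The SPL9 pattern is weighted by the library in which it had 1 count. SPL3 has too few counts for such a search.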

How the data were processed

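Whole-seedling mRNA was sequenced in 8 libraries. The deposited values are unnormalised whole-number counts for each gene. The build TAIR10 and the tools HISAT2, HTSeq 0.6.1p1, StringTie 1.3.5, Picard and FastQC 0.11.5 are listed in the submitters' processing notes, without roles or settings. How C24 reads mapped to the Col reference is not given in the sources used here. A gene was tested if at least 4 libraries reached 0.876 counts per 1e6 of the unscaled library total (without TMM factors), which equals 10 counts in a library of median total. Counts were tested with edgeR 4.0.16 (R 4.3.3; TMM scaling; quasi-likelihood F-test; temperature, age and genotype additive, or with 1 interaction term), two-sided, with Benjamini-Hochberg adjustment over all genes tested and a threshold of 0.05. SE was derived from the size of the change and its F statistic. Pair ratios are log2 CPM differences with a prior count of 2. DESeq2 1.42.0, limma 3.58.1 (voom), other scalings, no filter, thinning to 1664128 counts, log2 library total as a covariate and leaving out each library were alternatives. A fit with each matched pair as a block was added after seeing the data. The fitting code was tested on simulated data. Exon lengths, overlaps and sites come from RefSeq TAIR10.1, in which all 70 listed loci were found. Members and lists were chosen with earlier results of these data known. Named genes are all members, and from each list up to 3 with the smallest temperature p and up to 3 with the smallest age p.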

Additional observations from a re-analysis of the deposited data

Results flagged for a closer look

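SPL9 had a temperature effect of opposite sign on the 2 days in both hybrids. Its log2 ratios of 27 °C to 22 °C on day 7 were −0.44 in the pif4 hybrid and −0.65 in the Col hybrid, and those on day 4 were 0.49 and 1.73. The interaction was −1.24 (SE 0.46, edgeR adjusted p = 0.432), so the difference between the days did not pass after adjustment, and the largest ratio rests on 1 count.

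TOE2 also had ratios of opposite sign, on day 7 of 0.17 in the pif4 hybrid and 0.03 in the Col hybrid, and on day 4 of −0.13 and −0.50. The interaction was 0.39 (SE 0.20, edgeR adjusted p = 0.588), which did not pass either. SPL9 and TOE2 were picked by the signs of their ratios alone, among all members tested and all pairs of factors. The share of all genes with such signs was not counted.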

How the results depend on the processing

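Of 696 recomputed values of the members, 656 kept their direction and side of the threshold or moved by less than their error, 33 moved further, 7 came past the threshold and none lost a call. Among these, 60 uncalled estimates changed sign without passing. With counts thinned to the shallowest library only 5 members passed the filter, SPL4 not among them, and the members called came to 1 for temperature and 1 for age, instead of 2 each. Leaving out 1 library gave 2 to 3 members called for temperature and 2 to 4 for age, 4 without the Col hybrid at 27 °C on day 4. No member was called for genotype or any interaction in these fits. Among other listed genes, 95 of 614 recomputed values lost their call. The median of all genes was compared only for the other scalings, DESeq2, thinned counts and log2 library total as a covariate. Among these it moved at most by 0.0259 on the log2 scale, for temperature with upper-quartile factors. A fit with each matched pair of libraries as a block, chosen after seeing the data, called 2 members for temperature, 2 for age and 0 for genotype, and changed no member's call. The labels give each condition only 1 replicate number, so replicate numbers pair nothing here.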
